A study of Mus musculus with 6 samples.

Results

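The 87 genes described here, in a mouse melanoma series, encode nuclear subunits of the respiratory chain and of ATP synthase, plus a few related proteins with such symbols (Cox7a2l, Atp5s, Atp5sl). They were taken from the 24391 genes of the deposited count files by symbol: 38 genes whose symbols start with Nduf (Ndufaf genes left out) for complex I, the 4 Sdh subunit genes for complex II, 9 Uqcr genes and Cyc1 together for complex III, 18 Cox4i, Cox5, Cox6, Cox7 and Cox8 genes for complex IV, 17 Atp5 genes for complex V, and Cycs, which encodes cytochrome c. The rule used symbols alone. RNA was sequenced from 3 KMT2D WT and 3 KMT2D KO libraries of tumour cells of iBIP mice. In this model Tyr-CreERT2 expresses a tamoxifen-activated Cre from the tyrosinase promoter, Rosa26-rtta drives a doxycycline-induced TetO transgene of mutant BRAF, and floxed alleles, Ink4a/Arf (Cdkn2a) among them, can be deleted, on a mixed FVB and B6 background. All donor mice received doxycycline and, on the ears, 4-OHT. The KMT2D WT cells came from KMT2D+/+ mice and the KMT2D KO cells from mice with both Kmt2d alleles floxed (L/L). The groups share the other named alleles and agents, which does not cover alleles of the mixed background. The cells were grown in high-glucose DMEM. The ages of the mice are not given in the sources used here, nor is it stated if replicate libraries represent distinct mice, tumours or dishes of cells. All p-values therefore rest on the spread of these 6 libraries alone (possibly a technical spread), and a Kmt2d effect cannot be told apart from a difference between the tumours.

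Complex I (NADH dehydrogenase) and complex II (succinate dehydrogenase) pass electrons to ubiquinone, complex III (the cytochrome bc1 complex) passes them on to cytochrome c, and complex IV (cytochrome c oxidase) passes them to oxygen. Complexes I, III and IV pump protons across the inner mitochondrial membrane, and complex V (ATP synthase) uses the returning protons to make ATP. All but complex II mix nuclear-encoded subunits with subunits encoded by mitochondrial DNA, and the latter were not analysed here. Melanoma cells are known to differ in how far they rely on respiration or on glycolysis.

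Total counts lay between 43168605 and 79718782 per library. Library profiles correlated at r = 0.981 to 0.996 within the groups and at 0.868 to 0.882 between them (log2 CPM). CPM are counts scaled to a common library size after TMM correction. Kmt2d itself was read at 79.7, 87.6 and 101 CPM in KMT2D WT and at 73.0, 69.3 and 79.8 CPM in KMT2D KO, with overlapping groups and a log2 fold change (KO minus WT, as throughout) of -0.27 (SE 0.08, edgeR adjusted p 0.0075). The gene total includes the exons that are not floxed, so it does not check the deletion. The call did not hold without KMT2D KO replicate 2 (log2 fold change -0.21, edgeR adjusted p 0.058). Of 7 melanocyte markers, 6 had a mean under 1 CPM in KMT2D WT and 5 in KMT2D KO. The pigment genes Tyr, Tyrp1 and Dct did not exceed a group mean of 0.0765 CPM, while the mean of Mitf was 15.4 CPM (KMT2D WT) and 53.2 CPM (KMT2D KO). Of the 4 melanocyte markers tested, 2 were called higher and 2 were not called. The summed level of 7 fibroblast markers was 2800 to 2863 CPM in KMT2D WT and 11995 to 12698 CPM in KMT2D KO, mostly from Col1a1 and Col3a1. Of these 7, 5 were called higher, while Dpt (44.8 and 0.839 mean CPM) and Lum (1.30 and 0.527) were called lower. The extraction protocol in the labels names cerebellar tissue, but 5 cerebellar markers summed to no more than 0.827 CPM in any library. In such bulk samples, fewer cells of a type and less RNA per cell cannot be told apart, and the part of these markers in the results below was not tested.

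Of the 87 genes, 82 were abundant enough to test in the fit over 14579 genes. KMT2D KO had 24 of them higher and 30 lower at an adjusted p under 0.05 (edgeR quasi-likelihood test, Benjamini-Hochberg over all tested genes), and 28 were not called. In the whole transcriptome 35.4% of tested genes were called higher and 35.5% lower, 71% in all, against 65.9% of the tested respiratory genes. When libraries were scaled by their total alone, the split was 17 higher and 40 lower, because that scaling moves the median of all genes by -0.11 log2 units. The changes were mostly small. The median absolute log2 fold change was 0.28 for the 82 genes and 0.53 for all tested genes, and 4 of the 82 were called with an absolute log2 fold change above 1 (26.8% of all tested genes were). These are Ndufv3, Ndufa4l2 and Cox6b2, which rose, and Cox6a2, which fell. The difference in size was also seen among abundant genes. Of the 77 respiratory genes with at least 10 CPM in the higher group, 22 rose, 28 fell and 27 had no call. Their median absolute log2 fold change was 0.26, against 0.44 over all 9505 tested genes at that level. Of these 77 genes 64.9% were called, and of the 9505 genes 78.2%. The libraries of the groups did not overlap for 52 of the 82 genes (74.3% of all tested genes). The order of levels was similar in both groups. Across the 77 abundant genes, mean RPKM (CPM per kilobase of exon) in KMT2D WT and KMT2D KO had a Spearman rho of 0.91, a description over genes that share libraries.

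**Figure D1:**
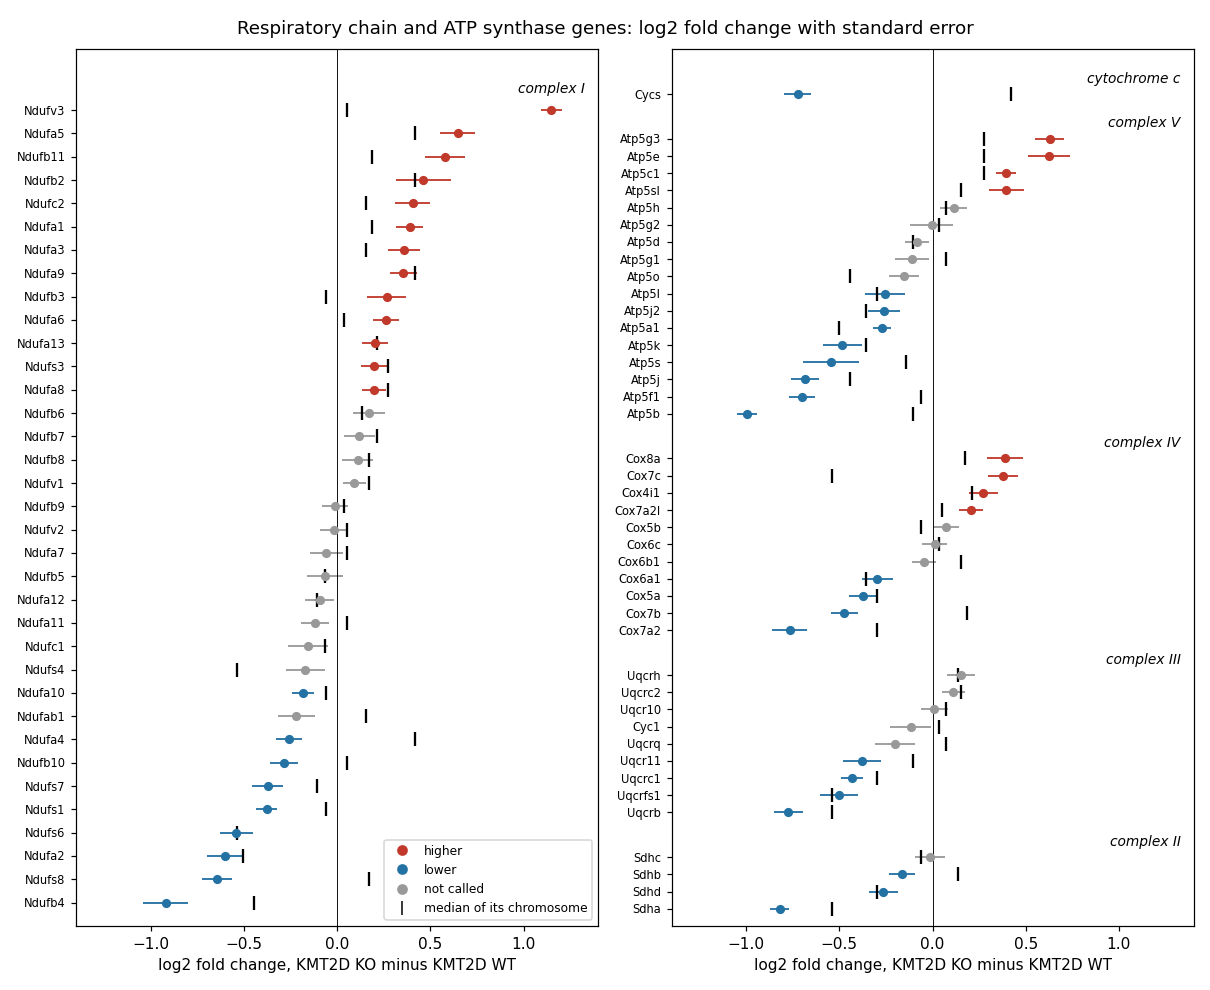
Each point is the log2 fold change (KMT2D KO minus KMT2D WT) of a gene with its standard error, grouped by complex, red where called higher, blue where called lower and grey where not called; the black tick is the median of all tested genes on the same chromosome. Genes with a mean under 4 CPM in both groups are left out. Complex I spans the widest range, from Ndufb4 at -0.92 to Ndufv3 at 1.15, and no point of complexes II and III is red.

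The complexes differed in their balance of calls. Complex I had 15 of 37 tested genes higher, 9 lower and 13 not called, with a median log2 fold change of 0.092, which was -0.019 when scaled by library totals alone. Complex II had none of 4 higher and 3 lower (median -0.21), and complex III had none of 9 higher, 4 lower and 5 not called (median -0.20). Complex IV had 5 of 14 higher and 5 lower (median -0.018), and complex V had 4 of 17 higher, 8 lower and 5 not called (median -0.15). These counts stand beside 35.4% and 35.5% among all tested genes, whose median was 0.004. The differences between complexes were not tested. The SD of a complex's median log2 CPM among libraries of a group reached 0.115 in complex I, 0.118 in complex II, 0.259 in complex III, 0.134 in complex IV and 0.178 in complex V. The median fold changes of complexes I, III, IV and V were smaller in size than that SD. It is a spread of levels among libraries, not the error of a median fold change, so it cannot decide if these medians differ from 0.

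Summed CPM gives the transcript budget of a complex, in which abundant genes weigh most. All 87 genes together took 0.588% of the scaled counts in KMT2D WT and 0.524% in KMT2D KO. The complex I genes summed to 1621, 1647 and 1483 CPM in KMT2D WT and to 1697, 1766 and 1568 CPM in KMT2D KO, overlapping groups with a ratio of means of 1.06. Complex II summed to 391, 399 and 375 CPM in KMT2D WT and to 283, 289 and 268 CPM in KMT2D KO, a ratio of 0.720 with no overlap. Complex III summed to 616, 611 and 571 CPM in KMT2D WT and to 518, 538 and 462 CPM in KMT2D KO (ratio 0.844), and these groups were apart as well. The complex IV sums were 1010, 1054 and 941 CPM in KMT2D WT and 1031, 1073 and 920 CPM in KMT2D KO (ratio 1.01), groups that overlapped. Complex V, the most abundant, summed to 2268, 2316 and 2110 CPM in KMT2D WT and to 1725, 1804 and 1655 CPM in KMT2D KO (ratio 0.774), with every KMT2D KO library below every KMT2D WT library. Single genes carried much of these differences: the ratio was 0.919 for complex V without Atp5b, 0.905 for complex II without Sdha and 0.914 for complex III without Uqcrb. With that gene left out, the groups overlapped in each of these complexes. For complex V without Atp5b the sums were 1491, 1496 and 1382 CPM in KMT2D WT and 1343, 1405 and 1270 CPM in KMT2D KO. The sums were not tested. In each complex the lowest library of each group was replicate 3.

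**Figure D2:**
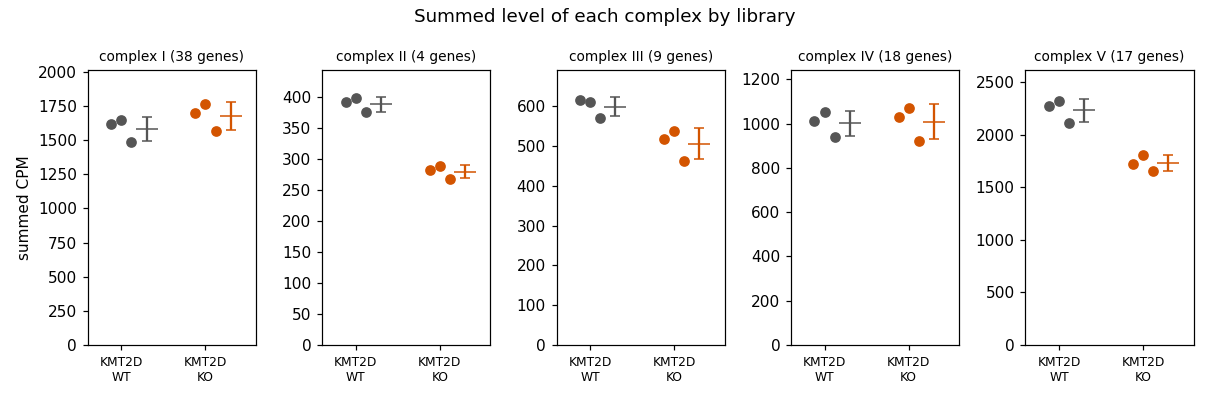
Summed CPM of the genes of each complex (vertical axes, each starting at 0) in the 3 KMT2D WT libraries (grey) and the 3 KMT2D KO libraries (orange), with the mean and SD beside the points. Complexes II, III and V have all KMT2D KO points below all KMT2D WT points, while complexes I and IV overlap.

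Many respiratory genes are known to carry binding sites of nuclear respiratory factor 1 (NRF1) and of the ETS-family factor GABP near their start. Promoters (250 bases upstream of the start, from RefSeq, build GRCm38.p6) were matched by symbol for 68 of the 87 genes. Members without a match include Atp5a1, Atp5f1, Atp5s, Atp5sl, Cox4i1, Cox4i2, Cox6a2, Cox6c, Cox8c, Cyc1, Ndufa2, Ndufa4l2, Ndufb9, Ndufs1, Sdhc, Uqcrb, Uqcrc2 and Uqcrq. The NRF1 motif, searched as GCGCA, any base and GCGC on both strands, was present in 13 of the 68 (19.1%) and in 4.23% of all 27025 promoters in the table. The median number of CpG dinucleotides was 14 in the promoters of respiratory genes and 6 in all. Genes with the motif moved both ways: 3 rose (Atp5c1, Ndufa5, Ndufa8), 6 fell (Atp5k, Cox6a1, Ndufb4, Ndufs6, Sdha, Sdhd), 3 were not called and Ndufs5 was not tested, with a median log2 fold change of -0.19. Among the genes without it 17 rose, 17 fell and 19 were not called (median -0.060). The ETS motif, searched as CCGGAAG on both strands, was present in 12 of 68 (17.6%) and in 7.83% of all promoters. Of those 12 genes, 2 rose, 5 fell and 5 were not called (median 0.033). Among the genes without the ETS motif 18 rose, 18 fell and 17 were not called (median -0.083). For both motifs these counts stand beside 35.4% higher and 35.5% lower, 71% in all, among all tested genes. Promoters of 4 genes are shown because they set the motif beside opposite outcomes; they were chosen after their values were seen. Ndufb4 and Sdha hold 3 matches each and fell, Ndufa8 holds 1 and rose, and Atp5b holds none and had the largest fall of complex V. Capitals mark NRF1 motif matches on either strand, and each sequence runs 5′ to 3′ on the gene's strand up to the start. A match is a string of letters, not a measured binding site. The windows are chr16:37654369-37654618 (minus strand) for Ndufb4, chr13:74350241-74350490 (minus) for Sdha, chr2:36049339-36049588 (minus) for Ndufa8 and chr10:128083057-128083306 (plus) for Atp5b.
Ndufb4: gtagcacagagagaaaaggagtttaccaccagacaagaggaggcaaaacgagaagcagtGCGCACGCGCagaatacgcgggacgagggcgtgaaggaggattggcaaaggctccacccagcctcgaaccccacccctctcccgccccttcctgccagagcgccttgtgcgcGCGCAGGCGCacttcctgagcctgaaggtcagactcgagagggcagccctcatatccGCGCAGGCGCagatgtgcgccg
Sdha: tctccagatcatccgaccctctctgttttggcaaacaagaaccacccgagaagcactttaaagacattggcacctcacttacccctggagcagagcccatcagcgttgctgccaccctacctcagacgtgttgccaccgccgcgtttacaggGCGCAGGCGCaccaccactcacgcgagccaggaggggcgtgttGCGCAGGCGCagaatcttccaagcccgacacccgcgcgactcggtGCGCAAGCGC
Ndufa8: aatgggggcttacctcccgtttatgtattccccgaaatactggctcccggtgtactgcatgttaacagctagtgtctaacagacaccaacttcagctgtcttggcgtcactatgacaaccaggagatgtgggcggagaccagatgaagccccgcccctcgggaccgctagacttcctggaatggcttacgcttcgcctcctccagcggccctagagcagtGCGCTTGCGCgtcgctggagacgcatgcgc
Atp5b: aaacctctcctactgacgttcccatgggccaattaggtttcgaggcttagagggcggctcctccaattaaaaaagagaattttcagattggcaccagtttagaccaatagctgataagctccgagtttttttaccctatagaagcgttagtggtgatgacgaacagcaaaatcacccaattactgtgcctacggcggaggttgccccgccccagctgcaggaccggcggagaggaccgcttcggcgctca

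Complex I takes electrons from NADH on a peripheral arm of flavin and iron-sulphur subunits and pumps protons in a membrane arm. Its nuclear-encoded core subunits did not move as a block. Ndufs3 rose from 25.4 ± 0.696 to 29.2 ± 1.19 CPM (SD, n = 3; log2 fold change 0.20), with no overlap between groups. Ndufs8, an iron-sulphur subunit on the path to ubiquinone (mm9 chromosome 19, 3908863 to 3912774), stood at 50.1, 50.5 and 40.9 CPM in KMT2D WT and at 30.1, 31.0 and 29.6 CPM in KMT2D KO. Every KMT2D KO library was below every KMT2D WT library (log2 fold change -0.65, SE 0.08, edgeR adjusted p 4.9e-06). Ndufs1, which carries iron-sulphur clusters, and Ndufs7 fell as well (-0.38 and -0.37). The flavin-binding Ndufv1 was at 66.3 ± 4.18 and 70.7 ± 1.67 CPM (SD, n = 3) in KMT2D WT and KMT2D KO and Ndufv2, its iron-sulphur partner, at 59.1 ± 1.93 and 58.3 ± 6.69 CPM, and neither was called.

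The largest rise among abundant members was that of Ndufv3, a small accessory subunit of the NADH-oxidising tip (mm9 chromosome 17, 31657060 to 31668270). It was read at 53.3, 55.3 and 53.9 CPM in KMT2D WT and at 123, 124 and 113 CPM in KMT2D KO, a 2.22-fold difference (log2 fold change 1.15, SE 0.06, edgeR adjusted p 1.6e-10). The groups were far apart relative to their spread. Its RPKM ratio to Ndufv1, in the same tip, was 0.834 ± 0.0541 in KMT2D WT and 1.73 ± 0.132 in KMT2D KO (SD, n = 3). Without Ndufv3, the ratio of the complex I sums was 1.02. Ndufa5, an accessory subunit of the peripheral arm, stood at 22.3, 22.0 and 20.1 CPM in KMT2D WT and at 35.1, 37.0 and 28.6 CPM in KMT2D KO (log2 fold change 0.65, SE 0.09). Other accessory genes that rose include Ndufb11 (0.58) of the membrane arm and Ndufa1 (0.39), both on the X chromosome.

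The accessory subunits with the largest falls were Ndufb4, Ndufa2 and Ndufs6. Ndufb4, a membrane arm subunit (mm9 chromosome 16, 37647688 to 37654454) whose promoter holds 3 NRF1 motif matches, was at 23.6, 20.9 and 20.9 CPM in KMT2D WT and at 12.1, 13.3 and 9.14 CPM in KMT2D KO (log2 fold change -0.92, SE 0.12, edgeR adjusted p 7.5e-06). Ndufa2, in the NADH-oxidising part of the arm, was at 22.0, 25.6 and 24.1 CPM in KMT2D WT and at 14.9, 17.8 and 14.6 CPM in KMT2D KO (-0.60). Ndufs6, which binds zinc, fell from 39.7 ± 1.41 to 27.3 ± 3.63 CPM (SD, n = 3; -0.54). The medians of their chromosomes were -0.44 (Ndufb4), -0.50 (Ndufa2) and -0.54 (Ndufs6). In contrast, Ndufa8, whose promoter holds 1 match, rose from 46.6 ± 1.28 to 53.4 ± 3.05 CPM (SD, n = 3; 0.20), less than the median of its chromosome 2 (0.27). The most abundant complex I gene per length, Ndufb9, showed no detectable difference. It was at 91.2, 91.6 and 80.5 CPM in KMT2D WT and at 87.9, 94.2 and 79.2 CPM in KMT2D KO, overlapping groups with a log2 fold change of -0.01 (SE 0.07) and mean RPKM of 135 and 134.

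Ndufs5 was listed with 0 counts in all 6 libraries. Its mm9 entry lies within another annotated entry on the same strand, BC002163, for 95.1% of its exon bases (484 of 509). Fragments that overlap several genes were left out of the counts, so this 0 says nothing about the transcript. BC002163, whose exons lie on 2 chromosomes in the files, had means of 12.3 CPM (KMT2D WT) and 4.96 CPM (KMT2D KO).

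Complex II is the only entry point that also works in the citric acid cycle, where Sdha, its flavin subunit, oxidises succinate. Sdha (mm9 chromosome 13, 74459703 to 74487688) fell with little spread between libraries. It was read at 212, 211 and 212 CPM in KMT2D WT and at 117, 120 and 122 CPM in KMT2D KO, 1.77-fold lower (log2 fold change -0.82, SE 0.05, edgeR adjusted p 1.2e-09). Its partner subunits differed far less. Sdhb, the iron-sulphur subunit, was at 59.6, 67.7 and 57.6 CPM in KMT2D WT and at 56.1, 56.9 and 52.2 CPM in KMT2D KO (-0.16, edgeR adjusted p 0.049). That call did not hold when KMT2D WT replicate 2 or any of the 3 KMT2D KO libraries was left out, with edgeR adjusted p between 0.092 and 0.25. Sdhd, a membrane anchor, was at 61.7, 59.9 and 52.0 CPM in KMT2D WT and at 50.4, 50.3 and 43.8 CPM in KMT2D KO (-0.26, edgeR adjusted p 0.007, or 0.057 without KMT2D KO replicate 3). Sdhc, the other anchor, was not called, with overlapping values of 57.5, 60.0 and 53.6 CPM in KMT2D WT and 59.0, 61.4 and 49.2 CPM in KMT2D KO. The RPKM ratio of Sdha to Sdhb, which occur once each in the enzyme, was therefore 1.30 ± 0.111 in KMT2D WT and 0.820 ± 0.0535 in KMT2D KO (SD, n = 3), with no overlap of libraries. Both Sdha and Sdhd hold the NRF1 motif in their promoters.

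In complex III, the 4 genes that fell were Uqcrb, Uqcrfs1, Uqcrc1 and Uqcr11. Uqcrb, a small subunit bound to cytochrome b (mm9 chromosome 13, 67001557 to 67006286), was read at 124, 117 and 139 CPM in KMT2D WT and at 78.0, 79.4 and 64.9 CPM in KMT2D KO (log2 fold change -0.77, SE 0.08, edgeR adjusted p 5.8e-07). It was the most abundant complex III gene per length in KMT2D WT, at 252 RPKM, whereas in KMT2D KO that place was taken by Uqcrh, the hinge protein, at 159 RPKM. Uqcrfs1, the Rieske iron-sulphur protein that passes electrons towards cytochrome c1, was at 38.7, 32.7 and 28.5 CPM in KMT2D WT and at 24.7, 23.9 and 21.8 CPM in KMT2D KO (-0.50, SE 0.10). Uqcrc1, a core protein on the matrix side, was at 107, 109 and 97.4 CPM in KMT2D WT and at 79.8, 78.2 and 73.9 CPM in KMT2D KO (-0.43, SE 0.06). Neither pair of groups overlapped. Uqcrc2, the partner of Uqcrc1 in the core, was not called, at 91.4 ± 6.82 and 98.8 ± 4.21 CPM (SD, n = 3), and the RPKM ratio of Uqcrc1 to Uqcrc2 was 1.30 ± 0.0941 in KMT2D WT and 0.890 ± 0.0299 in KMT2D KO. Uqcr11 fell by 0.38 on the log2 scale, with overlapping libraries. Cyc1, which encodes cytochrome c1, stood at 38.9 ± 6.46 and 35.9 ± 4.19 CPM and was not called.

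Cycs, the mobile carrier between complexes III and IV that also triggers apoptosis once released into the cytosol, fell. It was at 80.5, 69.9 and 75.9 CPM in KMT2D WT and at 47.3, 48.4 and 41.1 CPM in KMT2D KO (log2 fold change -0.72, SE 0.07, edgeR adjusted p 4.9e-07), with no overlap. The gene lies on chromosome 6 (mm9, 50512562 to 50516473), where the median of all tested genes was 0.42, so Cycs went against its chromosome. Fragments mapping to several places were left out by the counter's default, and processed copies of Cycs and of other small respiratory genes are known in the mouse genome. How many fragments were lost that way was not measured.

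In complex IV the common subunits moved in both directions. The largest rise among abundant genes was that of Cox8a, a small membrane subunit, at 110, 127 and 92.1 CPM in KMT2D WT and 148, 154 and 128 CPM in KMT2D KO (log2 fold change 0.39, SE 0.10, edgeR adjusted p 0.0022). Its groups were separated only narrowly. Cox7c was at 32.4, 37.3 and 32.0 CPM in KMT2D WT and at 41.0, 48.4 and 42.9 CPM in KMT2D KO (0.38), although the median of its chromosome 13 was -0.54. Cox4i1, the common form of the subunit through which ATP is known to slow the enzyme, was at 119, 111 and 93.1 CPM in KMT2D WT and at 129, 138 and 123 CPM in KMT2D KO (0.27, edgeR adjusted p 0.0065, or 0.16 and 0.086 when scaled by library totals alone). All 3 had every KMT2D KO library above every KMT2D WT library. The largest fall was that of Cox7a2, the common isoform of subunit VIIa, at 58.9, 56.6 and 59.5 CPM in KMT2D WT and 37.1, 37.6 and 27.9 CPM in KMT2D KO (-0.77, SE 0.09, edgeR adjusted p 3.5e-06). Cox7b was at 89.7, 86.1 and 81.8 CPM in KMT2D WT and at 65.2, 65.6 and 54.5 CPM in KMT2D KO (-0.47). Cox5a, one of the subunits around the catalytic core, was at 32.0, 33.9 and 31.5 CPM in KMT2D WT and at 24.0, 27.4 and 23.8 CPM in KMT2D KO (-0.37). No KMT2D KO library of these 3 genes reached a KMT2D WT library. Cox6b1, the most abundant complex IV gene per length (312 RPKM in KMT2D WT and 302 in KMT2D KO), was at 159, 165 and 148 CPM in KMT2D WT and 158, 160 and 139 CPM in KMT2D KO, and was not called (-0.047, SE 0.06), but was called lower with library totals alone (-0.16, edgeR adjusted p 0.045). Cox7a2l, which is known to join complexes III and IV into supercomplexes and is no catalytic subunit, rose from 103 ± 7.15 to 118 ± 6.95 CPM (SD, n = 3).

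**Figure D3:**
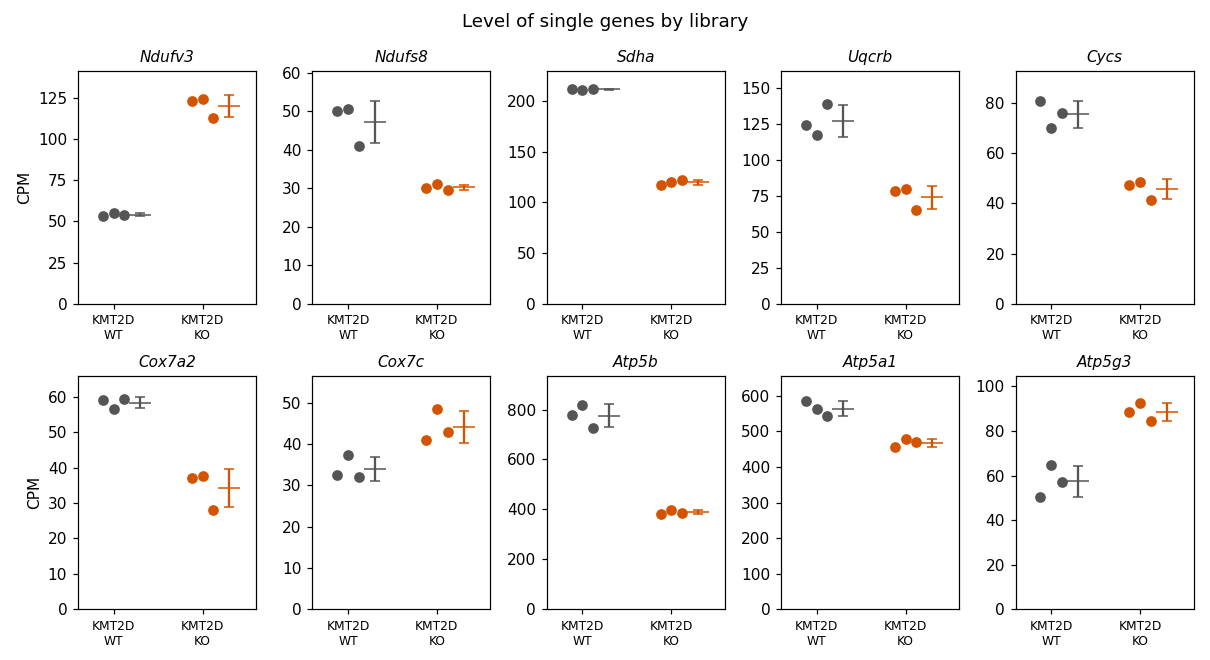
CPM by library (vertical axes from 0) of 10 genes of the set in KMT2D WT (grey) and KMT2D KO (orange), with the mean and SD beside the points. Ndufv3, Cox7c and Atp5g3 are higher in every KMT2D KO library, and the other 7 genes are lower in every KMT2D KO library.

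Several complex IV subunits have a common and a tissue-restricted isoform. Of 8 restricted genes listed, 4 were tested, and all 4 were at low levels. Cox6b2, known from testis, was at 0.137, 0.0323 and 0 CPM in KMT2D WT and at 2.93, 3.22 and 4.19 CPM in KMT2D KO, from 10 and 646 counts (log2 fold change 5.79, SE 0.48, edgeR adjusted p 4.5e-08). It rose from near nothing, but per length it still made up only 1.84% ± 0.493 of Cox6b1 and Cox6b2 together in KMT2D KO, and 0.0288% ± 0.0368 in KMT2D WT (SD, n = 3). Ndufa4l2, a hypoxia-induced relative of Ndufa4, was at 0.222, 0.0807 and 0.246 CPM in KMT2D WT and at 3.15, 2.59 and 2.75 CPM in KMT2D KO, from 29 and 547 counts (3.98, SE 0.36, edgeR adjusted p 1.2e-07). Its share of the Ndufa4 pair was 0.193% ± 0.101 and 3.40% ± 0.415. In contrast, Ndufa4, first described in complex I and now counted with complex IV, fell from 50.2, 51.5 and 45.9 CPM to 41.3, 43.6 and 38.8 CPM (-0.26).

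Cox6a2, the heart and skeletal muscle isoform, fell from 0.770, 1.36 and 0.872 CPM in KMT2D WT to 0.104, 0.0326 and 0.0376 CPM in KMT2D KO, from 168 and 12 counts (-3.99, SE 0.59, edgeR adjusted p 2.4e-05). Its mean in KMT2D WT was just under the 1 CPM set for naming a gene, so it was chosen after its values were seen. The summed level of 5 skeletal muscle markers moved the same way, from 10.8 to 12.7 CPM in KMT2D WT to 3.83 to 4.38 CPM in KMT2D KO, mostly from Ttn, while the muscle creatine kinase Ckm was at or under 0.0838 CPM in both group means. Of the 4 muscle markers tested, 2 were called lower and 2 were not called, with log2 fold changes of up to 0.64. Summed markers of brown adipocytes (1.97 to 2.79 and 0.0752 to 0.179 CPM) and of immune cells (9.56 to 15.4 and 3.03 to 3.68 CPM) were lower in KMT2D KO too. In contrast, those of Schwann cells (12.9 to 14.6 and 51.7 to 56.1 CPM) and of keratinocytes (9.83 to 13.8 and 14.6 to 16.3 CPM) were higher. Single markers of these 2 lists were split, with 2 called higher and 1 lower for Schwann cells, and 1 each way for keratinocytes. The part of RNA of any of these cell types in the Cox6a2 value was not tested. Its common counterpart Cox6a1 was at 117, 136 and 106 CPM in KMT2D WT and 99.9, 105 and 88.0 CPM in KMT2D KO (-0.30, edgeR adjusted p 0.0062). That call was lost without KMT2D WT replicate 2 (edgeR adjusted p 0.055) and without KMT2D KO replicate 3 (0.058). Cox7a1, another muscle isoform, was not called, at 0.361 ± 0.120 and 0.239 ± 0.0774 CPM (SD, n = 3). Cox4i2, Cox7b2, Cox8b and Cox8c were too low to test. Cox7b2 had 0 counts in KMT2D WT, which allows up to 0.0189 CPM at 3 counts over the group, and 8 in KMT2D KO. Cox6a2 and Ndufa4l2 share 10.5% and 3.33% of their exon bases with genes on the opposite strand (Itgad and Shmt2).

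**Figure D4:**
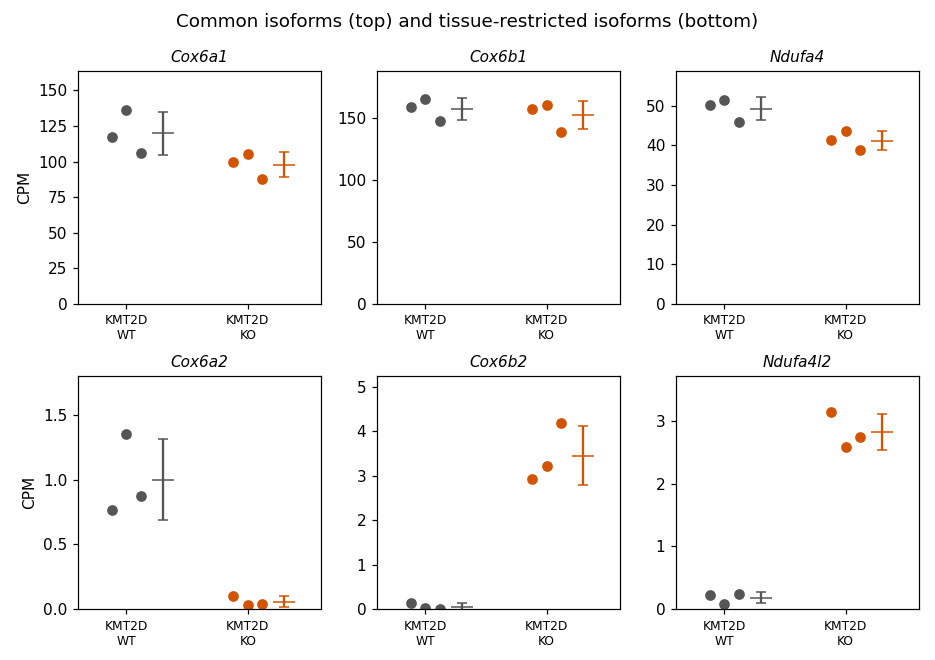
CPM by library of 3 common genes (top) and their tissue-restricted relatives (bottom) in KMT2D WT (grey) and KMT2D KO (orange), with mean and SD; each vertical axis starts at 0 and has its own scale. Cox6b2 and Ndufa4l2 rise to at most 4.19 CPM while Cox6b1 and Ndufa4 stay far above them, and Cox6a2 is near 0 in KMT2D KO.

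ATP synthase has a catalytic F1 head in the matrix and a membrane part with a rotating ring of c subunits, held together by a stalk. Its catalytic subunit Atp5b (beta; mm9 chromosome 10, 127520363 to 127527444) was the most abundant gene of the set in KMT2D WT, at 412 RPKM. It was read at 777, 819 and 728 CPM in KMT2D WT and at 382, 399 and 385 CPM in KMT2D KO, 1.99-fold lower (log2 fold change -0.99, SE 0.05, edgeR adjusted p 3.6e-10). Atp5a1 (alpha), which alternates with beta in equal number in the F1 ring, was at 587, 563 and 545 CPM in KMT2D WT and at 457, 478 and 469 CPM in KMT2D KO, a smaller fall (-0.27, SE 0.05) than the median of its chromosome 18 (-0.50). The RPKM ratio of Atp5b to Atp5a1 was accordingly 1.77 ± 0.0941 in KMT2D WT and 1.07 ± 0.0109 in KMT2D KO (SD, n = 3), and the libraries did not overlap. In KMT2D KO the most abundant complex V gene per length was Atp5h, a stalk subunit, at 216 RPKM. Of the 3 central rotor subunits of F1, Atp5c1 and Atp5e rose. Atp5c1 (gamma) was at 120, 124 and 116 CPM in KMT2D WT and at 159, 164 and 151 CPM in KMT2D KO (0.40, SE 0.05, edgeR adjusted p 1.1e-05). Atp5e (epsilon) was at 10.4, 12.9 and 10.7 CPM in KMT2D WT and at 18.2, 18.9 and 15.3 CPM in KMT2D KO (0.63). Atp5c1 and Atp5e both lie on chromosome 2, whose median was 0.27. Atp5d (delta), the other rotor subunit of F1, was at 116 ± 8.75 and 110 ± 6.58 CPM and was not called. F1 as a whole thus had 2 genes higher, 2 lower and 1 not called.

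Of the 10 genes of the membrane part and stalk, 1 rose, 5 fell and 4 were not called (median -0.20), 60.0% called against 71% of all tested genes. Atp5f1 (subunit b of the peripheral stalk) was at 138, 133 and 121 CPM in KMT2D WT and at 78.6, 88.0 and 73.9 CPM in KMT2D KO (-0.70, SE 0.07, edgeR adjusted p 4.2e-07). Atp5j (coupling factor 6, also in the stalk) was at 55.4, 57.6 and 52.8 CPM in KMT2D WT and at 36.0, 36.5 and 30.6 CPM in KMT2D KO (-0.68, SE 0.08). Both had no overlap between groups. The medians of their chromosomes were -0.064 (Atp5f1) and -0.44 (Atp5j). Atp5f1 shares 11.3% of its exon bases with Wdr77 and Atp5j 13.6% with Gabpa, in each case on the opposite strand, and fragments there were not assigned. Atp5k, Atp5j2 and Atp5l, small membrane subunits, fell by 0.48, 0.26 and 0.25 on the log2 scale. Atp5o, the stalk subunit that sits on top of F1, was not called (90.5 ± 10.4 and 81.4 ± 6.43 CPM). The gene that rose was Atp5g3, at 50.4, 64.5 and 57.3 CPM in KMT2D WT and at 88.6, 92.8 and 84.5 CPM in KMT2D KO (0.63, SE 0.08, edgeR adjusted p 4.7e-06). Like Atp5c1 and Atp5e, it lies on chromosome 2, with its median of 0.27. Atp5g1, Atp5g2 and Atp5g3 encode the same mature c subunit. Atp5g1 was at 55.8 ± 5.98 and 51.8 ± 6.29 CPM and Atp5g2 at 30.3 ± 5.58 and 30.3 ± 3.27 CPM, and neither was called. Per length, the share of Atp5g3 in the 3 transcripts was 41.7% ± 4.46 in KMT2D WT and 53.6% ± 1.83 in KMT2D KO (SD, n = 3).

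Fold changes followed the chromosome in part. Whole chromosomes differed between the groups, with medians over all tested genes from -0.54 on chromosome 13 to 0.42 on chromosome 6. Of the 6 respiratory genes on chromosome 13, 4 fell (Sdha, Uqcrb, Ndufs6, Uqcrfs1) and 1 rose (Cox7c). All 5 on chromosome 9 (median -0.30) fell and all 5 on chromosome 2 (median 0.27) rose. Across all chromosomes 35.5% of tested genes were called lower and 35.4% higher. The shares called on single chromosomes were not counted. Over the 77 abundant members the fold change of a gene and the median of its chromosome correlated at Pearson r = 0.57 and Spearman rho = 0.62, a description across genes that share chromosomes and libraries. Over all 82 tested members, with the few low isoforms of large fold change included, r was 0.23 and rho 0.55. Among the abundant members the signs were the same for 57 of the 77 and for 41 of the 50 called ones. The SD of the log2 fold changes was 0.41 before and 0.34 after the chromosome median was subtracted. With that subtraction the median of complex I was -0.063 and that of complex V 0.038, both of the opposite sign, and 10 of the 54 called genes changed sign (Ndufa13, Ndufa8, Ndufa9, Ndufs3, Sdhd, Uqcrfs1, Cox6a1, Atp5a1, Atp5j2 and Atp5l). Ndufv3, Atp5b, Atp5f1, Ndufs8, Cox7b, Cycs and Cox7c lay far from their chromosome's median. The reason why chromosomes differ was not tested.

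**Figure D5:**
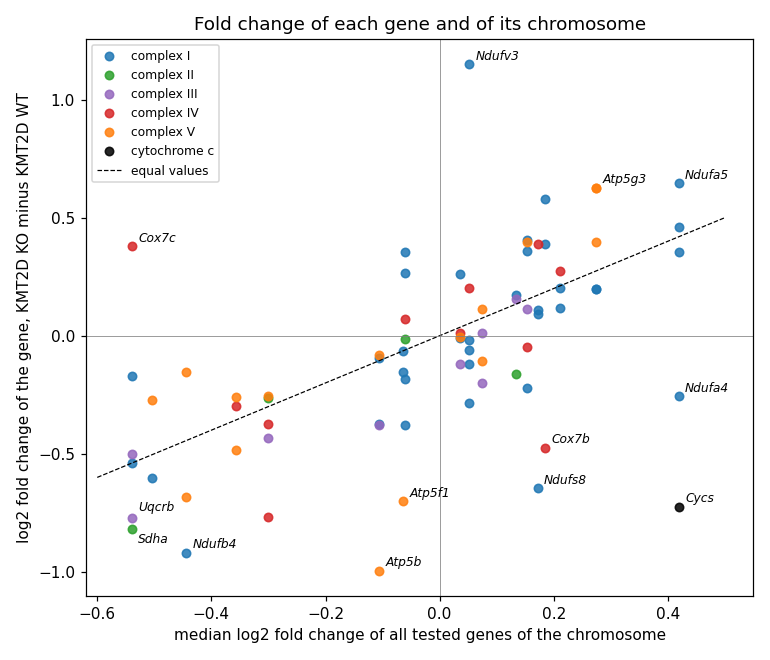
Log2 fold change (KMT2D KO minus KMT2D WT) of each of the 77 abundant genes against the median log2 fold change of all tested genes on its chromosome, coloured by complex; the dashed line marks equal values. Points run from lower left to upper right (r = 0.57), with Ndufv3 and Cox7c far above the line and Cycs, Atp5b and Ndufs8 far below it.

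Assembly factors, which insert cofactors and join subunits, also moved in both directions. For complex I, 4 of 13 tested factors rose, 5 fell and the other 4 had no call (median -0.20), 69.2% called against 71% of all tested genes. Nubpl, which delivers iron-sulphur clusters, rose from 1.49 to 3.53 mean CPM (1.23) and Ndufaf1 from 6.09 to 13.1 CPM (1.10). Ndufaf2 fell from 14.3 to 5.82 CPM (-1.30) and Timmdc1, a membrane arm factor, from 38.0 to 19.2 CPM (-0.98). The medians of their chromosomes were -0.14 (Nubpl), 0.27 (Ndufaf1), -0.54 (Ndufaf2) and -0.44 (Timmdc1). For complex II, Sdhaf1 rose (0.40), Sdhaf2, which helps attach the flavin to Sdha, fell from 83.0 to 67.4 CPM (-0.30), and 2 of 4 were not called (50.0% called). For complex III, Uqcc3 rose (0.84), Uqcc2 fell from 54.5 to 23.1 CPM (-1.24), Lyrm7 fell (-0.49), and 3 of 6 were not called (50.0% called). The Lyrm7 call was lost without KMT2D WT replicate 2, KMT2D KO replicate 1 or KMT2D KO replicate 2 (edgeR adjusted p 0.071 to 0.077). For complex IV, 3 of 18 tested factors rose, 7 fell and 8 were not called (median -0.18), 55.6% called against 71% of all tested genes. Cox17, a copper chaperone, fell from 30.7 to 16.8 CPM (-0.87) and Lrpprc, which stabilises mitochondrial mRNAs, from 111 to 66.4 CPM (-0.75), while Pet100 (0.51) and Surf1 (0.39) rose. Sco2 was listed with 0 counts in all libraries. Of 4 ATP synthase assembly and inhibitor genes, Atpaf1 (0.45) and Tmem70 (0.37) rose, Atpaf2 fell (-0.22) and the inhibitor Atpif1 was not called. The Atpaf2 call was lost without KMT2D WT replicate 2 or any KMT2D KO library (edgeR adjusted p 0.087 to 0.17).

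Among 10 tested regulators of respiratory gene transcription, 4 rose, 3 fell and 3 were not called (median -0.026), 70.0% called against 71% of all tested genes. Gabpa, the DNA-binding subunit of GABP, was at 152, 144 and 163 CPM in KMT2D WT and at 72.3, 70.7 and 70.9 CPM in KMT2D KO (-1.10, SE 0.06, edgeR adjusted p 2.4e-10). It lies on chromosome 16, with a median of -0.44. Nrf1, which binds the motif searched above, was at 22.6, 22.8 and 21.9 CPM in KMT2D WT and at 28.3, 30.4 and 28.7 CPM in KMT2D KO (0.38), on chromosome 6 with its median of 0.42. Each separated the groups fully. Perm1, a muscle coregulator, fell from 4.93 to 2.08 CPM (-1.25), and the coactivator Ppargc1b rose from 0.678 to 1.38 CPM (1.02, lost without KMT2D KO replicate 1 at an edgeR adjusted p of 0.069). Of 10 genes for transcription and copying of mitochondrial DNA, Polg (35.0 to 60.0 CPM, 0.78) and Peo1 (19.6 to 31.1 CPM, 0.66), the DNA polymerase and helicase, rose. Tfb2m fell (-0.32), and 7, Tfam among them, were not called, which left 30.0% called against 71% of all tested genes.

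The pathways that feed the chain were mixed as well. Ubiquinone synthesis had 5 of 13 genes higher, 5 lower and 3 without a call (median 0.11), 76.9% called against 71% of all tested genes. Coq7, the hydroxylase near the end of ubiquinone synthesis, was at 26.2, 23.1 and 20.0 CPM in KMT2D WT and at 5.58, 6.41 and 5.73 CPM in KMT2D KO (-1.97, SE 0.11, edgeR adjusted p 8e-10). Coq10b, a ubiquinone-binding protein, fell from 51.8 to 26.1 CPM (-0.99), and the kinase-like Adck3 (3.15 to 9.19 CPM, 1.55) and Adck4 (18.6 to 36.8 CPM, 0.98) rose. Of 7 other enzymes and carriers that donate electrons to ubiquinone, 1 rose, 4 fell and 2 were not called (71.4% called). Dhodh, of pyrimidine synthesis, rose (0.62), and Prodh, which oxidises proline, fell from 2.14 to 0.256 CPM (-3.05) and Etfa from 23.7 to 17.1 CPM (-0.47). Slc25a3, which imports the phosphate used by ATP synthase, was at 218, 226 and 227 CPM in KMT2D WT and at 120, 127 and 119 CPM in KMT2D KO (-0.88, SE 0.05, edgeR adjusted p 1e-09). It lay below KMT2D WT in every KMT2D KO library, while the ADP/ATP carriers Slc25a4 (426 and 410 CPM) and Slc25a5 (177 and 161 CPM) were not called.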

How the data were processed

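RNA from 3 KMT2D WT and 3 KMT2D KO libraries was analysed from the deposited files, which hold whole-number counts of fragments per gene made with featureCounts 1.5.2 over mm9 exons, per the file headers. The recorded command set no strand option and none for multi-mapped or multi-gene fragments, both of which the tool drops by default. The submitters' processing notes list STAR, HTSeq and mm9 without roles. Gene coordinates are those of the files (mm9, counted from 1).

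The counts were fitted with edgeR 4.0.16 in R 4.3.3 (TMM, filterByExpr by group, quasi-likelihood F test, Benjamini-Hochberg over 14579 genes). A gene is called at an adjusted p under 0.05, and SE is the absolute log2 fold change over the square root of F. CPM use TMM-scaled library sizes, and RPKM are CPM per kilobase of exon. Alternatives used DESeq2 1.42.0, limma 3.58.1 (voom), other scalings and filters, a replicate block, a minimum fold, and each library left out. The procedure was tested on simulated counts. It called 80% of genes changed by 0.5 log2 units, 94% of those changed by 1 and 100% of those changed by 2. Of its calls 7.07% were false. In the simulation 14217 of 14417 genes were unchanged, while 71% of tested genes were called in the data. It therefore does not give the error rate for these data. Replicates were distinct libraries (chi-square per degree of freedom 11.6 to 26.1 within groups). The precision of a value is limited by its count, and floors cover counting error only.

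Members and gene lists were chosen with earlier results of these data known. Genes given by library are, per complex, up to 3 called genes each way with the largest change and at least 1 CPM, the most abundant per length, the 4 Sdh genes, Cycs and the isoforms at 1 CPM or more. From each other list up to 2 called genes each way are named, and further genes are named for their role. Some alleles of the model and 1 member gene are not reported here, and that gene is left out of the plot of fold changes by gene.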

Additional observations from a re-analysis of the deposited data

How the results depend on the processing

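DESeq2, limma voom, RLE factors and robust empirical Bayes each called the same 54 genes, and the replicate block called these and 2 more (24 higher, 32 lower). Same-numbered libraries of the groups deviated together hardly at all (correlations 0.0149, 0.0095 and 0.0085, each the highest for its number), so the numbers were not taken as pairs; with the replicate block 10368 genes were called in all, against 10345. A test against a minimum fold of 1.2 left 12 genes higher and 18 lower, all among the 54, and Kmt2d without a call (-0.27, edgeR adjusted p 0.33). Scaling by library totals alone kept 47 of the 54 calls and added 10. Leaving out a library kept 47 to 53 of them. It gave 19 to 26 genes higher and 25 to 36 lower, Kmt2d between -0.34 and -0.17, and medians of 0.045 to 0.12 in complex I, -0.27 to -0.15 in complex II, -0.30 to -0.071 in complex III, -0.087 to 0.095 in complex IV and -0.21 to -0.088 in complex V. The complex IV median was also above 0 with no low-count filter (0.10), a minimum mean of 1 CPM (0.024) and centring by chromosome (0.019), and further below 0 with library totals alone (-0.13). Counting structural subunits only (Ndufa4 moved to complex IV, and Cox7a2l, Atp5s and Atp5sl left out) gave 22 genes higher and 29 lower and a complex IV median of -0.15. Centring moved the medians of complex I to -0.063 and of complex V to 0.038, and turned the signs of Sdhd (0.037), Uqcrfs1 (0.036), Cox6a1 (0.062), Sdhc (0.048) and Nrf1 (-0.041). Uncalled genes near 0 changed sign when a library was left out: Ndufb9 ranged from -0.065 to 0.062, Cox6b1 from -0.087 to 0.024 and Sdhc from -0.061 to 0.087. With no low-count filter Ndufb9 was at 0.019 and Sdhc at 0.018. Where no cause is given, the cause was not tested. Depth limits the isoforms under 1 CPM, where 3 counts over a group are 0.0189 CPM (KMT2D WT) or 0.0151 CPM (KMT2D KO).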
